A study of Danio rerio with 4 samples.

Results

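Between 48 and 72 hours post fertilization (hpf), 46 genes rose together in endothelial cells, cardiomyocytes and red blood cells of the zebrafish heart, and 27 of them were higher in barcodes with a liver profile than in any of these 3 cell types. The 46 genes were chosen by their measured values from the 25434 features of the count matrices. A gene was taken when, in each of the clusters "Endothelial cells", "Myocardium" and "Erythrocytes", its summed level averaged at least 30 CPM (UMIs, the unique molecules counted, scaled to a fixed total per cluster and library) at 72 hpf and its CPM + 5 was at least 1.5 times higher in each 72 hpf library than in each 48 hpf library. A set of 20 mitochondrial, stress and immediate early genes was left out by identifier, and 0 of them met the rule. Since the rule used the change between stages in these 3 clusters, that change is described here with no test.

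Whole hearts came from embryos of crosses between an enhancer-trap line and Tg(myl7:mRFP), whose mRFP marks cardiomyocytes. The trap lines were sqet31Et and sqet33mi59BEt, in which EGFP labels cells of the atrioventricular canal or of the sinoatrial region. The groups were 2 libraries at 72 hpf and 2 libraries at 48 hpf, 1 for each line and stage, each from many pooled hearts separated by hand from other embryo tissue. The 2 lines stood in for replicates, so line and replicate cannot be told apart, and every animal carried the mRFP transgene and a trap insertion.

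The 52447 barcodes held 57372036 and 24073652 UMIs at 72 hpf and 63158786 and 109489623 UMIs at 48 hpf, in the order sqet31Et, sqet33mi59BEt that is kept below. The authors placed 34676 barcodes in 18 clusters. All 6 matched endothelial markers and all 4 matched myocardial markers were highest in their own cluster among the 3 in every library, as were 9 of 10 red cell markers. Between 28 and 71 barcode sequences were shared by any pair of libraries. The 10 red cell markers summed to 92.1 and 2646 CPM in Endothelial cells at 72 hpf, against 325 and 453 CPM at 48 hpf, so the 72 hpf sqet33mi59BEt library stood apart in red cell RNA outside red cells. Erythrocytes had 233266 and 545001 UMIs at 72 hpf, against 115792 and 261168 UMIs at 48 hpf, and were the shallowest of the 3 clusters. Mitochondrial UMIs were 12.1% and 6.33% at 72 hpf, against 2.56% and 4.35% at 48 hpf, and their part in the results was not tested.

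The liver secretes most proteins of the blood plasma, among them apolipoproteins, transferrin, protease inhibitors, fibrinogen and complement, and its hepatocytes hold abundant metabolic enzymes and lipid-binding proteins. In droplet sequencing, RNA set free by broken cells enters every droplet, so transcripts of a very active tissue are counted at a low level in cells that do not make them. Within 1 library, RNA from 1 such source keeps its genes in a fixed ratio to each other. Over the same period of heart development, endocardial cells at the atrioventricular canal form the cushions that become valves and lay down collagen, periostin and other matrix proteins.

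In Endothelial cells, 362 of 3610 genes that reached the level also reached the fold (10.0%). The share was 7.83% in Myocardium, with 240 of 3064 genes, and 7.61% in Erythrocytes, with 232 of 3049 genes. Of 2224 genes that reached the level in all 3 clusters, 46 (2.07%) reached the fold in all. The choice rested on single libraries in part: the rule took 159 genes without the 72 hpf sqet31Et library, 82 without the 48 hpf sqet31Et library, and 47 without the 72 hpf sqet33mi59BEt library, of which 28 were members. Just inside the fold of 1.5 were SLC25A25, at a smallest fold of 1.502, H1-10 at 1.54, PYGL at 1.55, anxa5b at 1.59 and si:ch211-178n15.1 at 1.60. Just outside were CCNL1 at 1.48, FAM120C at 1.46, BOC at 1.44, PCF11 at 1.42 and the unnamed ENSDARG00000100925 at 1.41. Some gene symbols were available only in the human style of capitals. They name the gene counted here, and 10 members share theirs with another zebrafish gene, among them RBP2 (ENSDARG00000093774), afp4 (ENSDARG00000095863), SPTLC2 (ENSDARG00000074287), SLC25A25 (ENSDARG00000010572), GSTM3 (ENSDARG00000088116), POSTN (ENSDARG00000043806), GPD1 (ENSDARG00000043180), CELA1 (ENSDARG00000017314) and THBS1 (ENSDARG00000103775). Counts of such copies may be split or shared by the mapping.

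**Figure D1:**
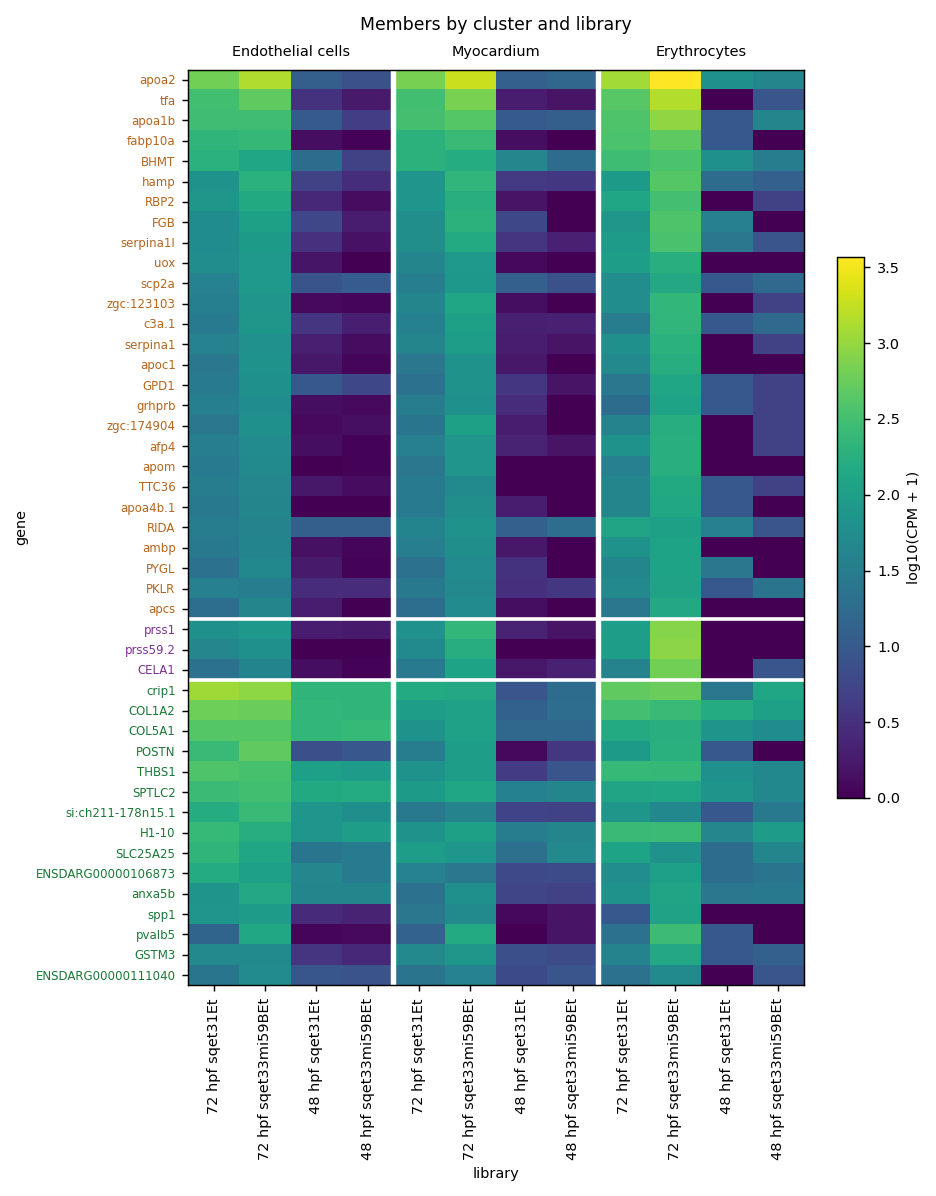
Level of 45 members (rows, log10 of CPM + 1) in every library (columns, 72 hpf left of 48 hpf) of the 3 clusters that the rule used. Gene names are brown for the 27 members rich in liver barcodes, purple for 3 pancreatic enzymes and green for 15 others, and the brown and purple members are near 0 at 48 hpf in most columns.

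Plasma protein genes were among the most abundant members. apoa2, an apolipoprotein of high-density lipoprotein, had 644 and 1397 CPM in Endothelial cells at 72 hpf, against 11.1 and 6.66 CPM at 48 hpf. In Myocardium apoa2 had 682 and 1894 CPM at 72 hpf, against 11.4 and 13.9 CPM at 48 hpf, and in Erythrocytes 1175 and 3697 CPM at 72 hpf, against 60.5 and 42.1 CPM at 48 hpf. Its level was thus highest in the red cells of the 72 hpf sqet33mi59BEt library. That its stages lie apart in the 3 clusters is set by the rule. tfa, the plasma iron carrier transferrin, had 305 and 497 CPM in Endothelial cells, 305 and 713 CPM in Myocardium and 433 and 1418 CPM in Erythrocytes at 72 hpf. At 48 hpf tfa was at 2.33 and 0.812 CPM in Endothelial cells, 0.905 and 0.555 CPM in Myocardium and 0 and 7.66 CPM in Erythrocytes. apoa1b, the main protein of high-density lipoprotein, had 299 and 294 CPM in Endothelial cells at 72 hpf, against 9.09 and 3.41 CPM at 48 hpf.

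fabp10a, the fatty acid-binding protein of the liver and a standard hepatocyte marker in zebrafish, had 212 and 240 CPM in Endothelial cells, 197 and 265 CPM in Myocardium and 364 and 473 CPM in Erythrocytes at 72 hpf. It was nearly absent at 48 hpf, at 0.349 and 0.0812 CPM in Endothelial cells, 0.362 and 0 CPM in Myocardium and 8.64 and 0 CPM in Erythrocytes. BHMT, which remethylates homocysteine in liver, had 190 and 128 CPM in Endothelial cells at 72 hpf, against 17.4 and 3.90 CPM at 48 hpf. hamp, the iron-regulating hormone hepcidin, had 65.9 and 188 CPM in Endothelial cells at 72 hpf, against 3.96 and 1.95 CPM at 48 hpf. The remaining liver-profile members were FGB (fibrinogen beta chain), c3a.1 (complement), ambp, serpina1 and serpina1l (protease inhibitors), apom, apoc1 and apoa4b.1 (apolipoproteins), apcs (a pentraxin), afp4, RBP2 (a cellular retinol-binding protein), uox (urate oxidase), PKLR (pyruvate kinase), PYGL (glycogen phosphorylase), GPD1 (glycerol-3-phosphate dehydrogenase), grhprb (glyoxylate reductase), scp2a (a sterol carrier), RIDA, TTC36, zgc:123103 and zgc:174904.

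The 27 together took 2453 and 4081 CPM of Endothelial cells, 2514 and 5504 CPM of Myocardium and 3935 and 11120 CPM of Erythrocytes at 72 hpf. At 48 hpf they took 90.2 and 49.5 CPM of Endothelial cells, 117 and 77.1 CPM of Myocardium and 337 and 234 CPM of Erythrocytes. The sums at 72 hpf were nearly equal in endothelium and heart muscle in the sqet31Et library, and highest in red cells in both libraries. At 500 UMIs drawn from every cell, with 0 cells too shallow to be drawn from, 15.8% and 23.3% of Endothelial cells, 21.9% and 34.2% of Myocardium cells and 21.8% and 49.1% of Erythrocytes kept a tfa UMI at 72 hpf. At 48 hpf the thinned shares were 0.242% and 0% of Endothelial cells, 0.257% and 0.188% of Myocardium cells and 0% and 0.272% of Erythrocytes. Before thinning, 40.3% and 35.0% of Endothelial cells had a tfa UMI at 72 hpf, at a median of 1821 and 868 UMIs a cell, against 0.821% and 0.436% at 48 hpf, at 4364 and 5611 UMIs. The shares were 47.5% and 47.1% in Myocardium at 72 hpf, at 1824 and 891 UMIs, and 46.3% and 61.7% in Erythrocytes, at 1029 and 679 UMIs. The thinned shares in heart muscle and red cells were thus above that of endothelium in both 72 hpf libraries. How much of the tfa in any of these clusters was free RNA was not tested.

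Barcodes with a liver profile were present in the libraries. Those with at least 10% of their UMIs in 12 matched hepatocyte markers numbered 16 and 43 at 72 hpf, against 1 and 0 at 48 hpf. At 72 hpf, 11 and 25 of them lay in the cluster "Mesenchymal fibroblasts", 5 and 18 were left without a cluster, and 0 were in the 3 clusters of the rule. At 1% or more the numbers were 566 and 609 at 72 hpf, of which 10 and 64 were in the 3 clusters of the rule, against 21 and 10 at 48 hpf. At least 1 UMI of these markers was found in 76.7% and 72.0% of all barcodes at 72 hpf, against 8.18% and 3.37% at 48 hpf.

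Of the 46 members, 26 were higher in the liver-rich barcodes than in each of the 3 clusters in both 72 hpf libraries. tfa made up so much of the marker sum that 0 barcodes reached 10% without it. At a minimum of 5%, tfa had 97480 and 65430 CPM in the liver-rich barcodes and was counted as the 27th. In the liver-rich barcodes, apoa1b had 59040 and 34430 CPM, apoa2 had 42620 and 59370 CPM and fabp10a had 1420 and 862 CPM. The lowest values among the 27 there were 144 CPM for RIDA, from 10 UMIs, and 160 CPM for PKLR, from 13 UMIs. In Erythrocytes of the same libraries RIDA had 120 CPM and PKLR 114 CPM, so their place among the 27 rests on few counts. Outside the 27, no member exceeded 28.8 and 123 CPM.

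The liver-rich barcodes gave an estimate of what liver RNA alone would contribute. In each cluster and library, the member's level in liver-rich barcodes was multiplied by the cluster's marker sum over the marker sum in those barcodes, with the member itself left out of the list. The marker sum of Endothelial cells was 0.580% and 0.960% of that in liver-rich barcodes. For 10 members the measured level was at most 2 times the estimate in all 6 cluster and library pairs: c3a.1, apoa1b, zgc:123103, apcs, serpina1l, serpina1, apoa4b.1, ambp, FGB and apom, with ratios from 0.459 to 1.65. All but zgc:123103, which has no annotated role here, encode secreted plasma proteins. Of the 10, serpina1l, serpina1, ambp, FGB and apom are themselves on the marker list, which is mostly plasma protein genes. That list both picked the barcodes and scaled the estimate, so it may favour a close match for genes of this kind. How far the list sets which members lie near the estimate was not tested.

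A further 9 members stood well above the estimate, by an amount that depended on how liver-rich barcodes were defined. With a minimum of 10% they were at least 10 times the estimate in all 6 pairs: TTC36, RBP2, uox, BHMT, PKLR, PYGL, RIDA, scp2a and fabp10a. Apart from TTC36, for which no role is given here, these encode enzymes and binding proteins that stay inside the cell. At a minimum of 5%, which took in 78 and 120 barcodes, 0 members were at least 10 times the estimate in all 6 pairs, and the 9 lay between 2.69 and 26.5 times. fabp10a was at 22.2 to 39.7 times the estimate at 10% and at 3.58 to 26.5 times at 5%. BHMT was at 14.3 to 20.04 times at 10% and at 3.09 to 5.80 times at 5%. In Mesenchymal fibroblasts as a whole at 72 hpf, fabp10a had 1011 and 1611 CPM and scp2a 179 and 423 CPM. The 10% barcodes held 1420 and 862 CPM of fabp10a and 173 and 283 CPM of scp2a. These barcodes were thus below the whole cluster for scp2a, and for fabp10a in sqet33mi59BEt. RBP2 was higher in the barcodes, at 937 and 985.5 CPM against 367 and 851 CPM. So was apoa1b, at 59040 and 34430 CPM against 3262 and 4530 CPM. The 10 members nearest to the estimate were at 0.457 to 1.66 times at 5%, so they stayed below the 9 at both minimums. For RBP2 at 10% the excess was of like size in each cluster, at 13.9 and 15.4 times in Endothelial cells, 13.5 and 12.7 times in Myocardium and 14.7 and 11.4 times in Erythrocytes. Between them at 10% stood zgc:174904 (1.08 to 2.30), apoa2 (2.21 to 2.95), afp4 (2.52 to 4.18), apoc1 (3.49 to 6.35), hamp (3.49 to 6.37), grhprb (3.98 to 17.4) and GPD1 (7.34 to 17.0). These classes were cut from the ratios themselves, and why some members exceed the estimate was not tested.

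**Figure D2:**
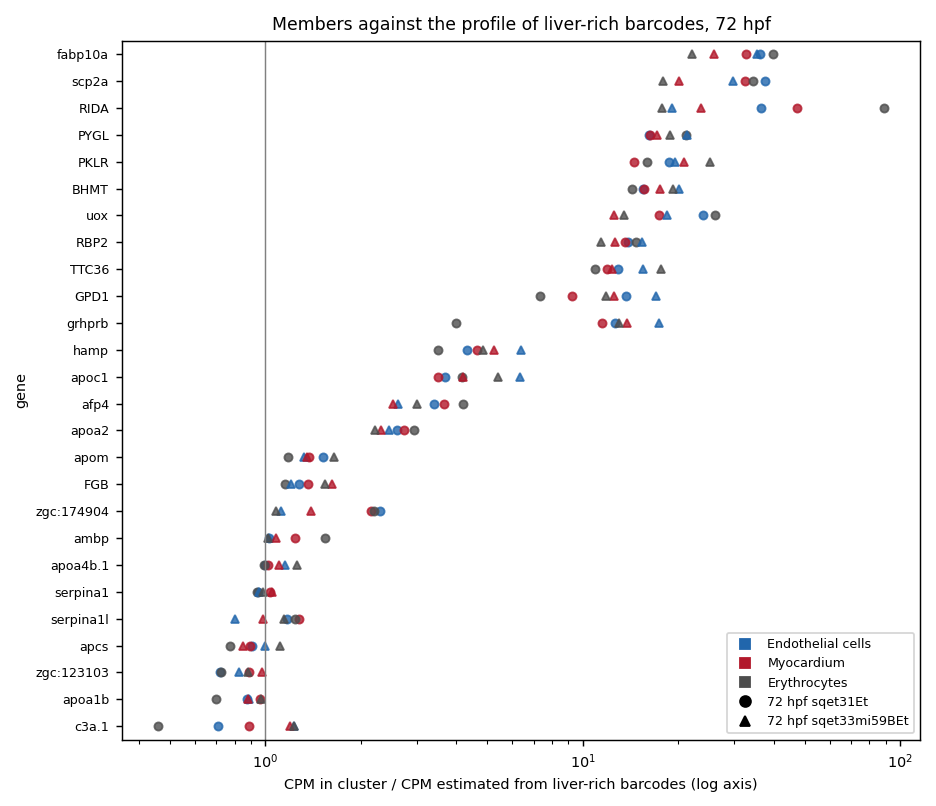
Measured CPM divided by the CPM estimated from liver-rich barcodes (x axis, log scale) for the 26 members with an estimate (rows), by cluster (colour) and 72 hpf library (marker shape). Plasma protein genes such as apoa1b and serpina1 lie near 1, and fabp10a and BHMT lie above 10 in all 3 clusters at the 10% minimum drawn here, while grhprb and GPD1 reach down to 3.98 and 7.34.

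Ratios between clusters within a library gave a second view. The 12 hepatocyte markers were 1.61 and 2.93 times as high in Erythrocytes as in Endothelial cells at 72 hpf, and 1.01 and 1.43 times as high in Myocardium. Of these 12, 7 are themselves members, so the marker ratios are not a separate measure of the liver members. Over the 27 liver members the median ratio of Erythrocytes to Endothelial cells was 1.55 and 2.85, and that of Myocardium to Endothelial cells was 1.01 and 1.37. 25 of the 27 were higher in Erythrocytes than in Endothelial cells in both 72 hpf libraries, the exceptions being grhprb, at 0.509 and 2.20, and GPD1, which was also below 1 in the sqet31Et library. fabp10a had ratios of 1.72 and 1.97 and apoa2 of 1.82 and 2.65, so members with unlike excess over the estimate had like ratios between clusters.

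The edgeR quasi-likelihood test compared the clusters with the library as a block, over both stages. Its sums are those from which the rule chose the members, although the rule did not compare clusters. The level and rise asked of each cluster may shift these differences. The calls against Erythrocytes, for Endothelial cells and for Myocardium, therefore describe the chosen genes only. Against Erythrocytes, Endothelial cells were lower for 30 members and higher for 7 at an adjusted p under 0.05, while over all 8178 genes tested 11.1% were lower and 10.2% higher. The 46 members had a median log2 fold change of -1.39, against 0.09 over all genes. Of the 27 liver members, 25 were lower in Endothelial cells, all but grhprb and GPD1. apoa2 had a log2 fold change of -1.79 (SE 0.28, edgeR adjusted p = 7.38e-06) and fabp10a of -1.27 (SE 0.29, edgeR adjusted p = 0.00113), which did not pass without the 72 hpf sqet33mi59BEt library (edgeR adjusted p = 0.0671). Without that same library, 13 members were called in place of 37, and with no block 0 were called, although DESeq2 with the block called 31.

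Myocardium was lower than Erythrocytes for 18 members and higher for 0, against 13.6% lower and 17.7% higher of 5433 genes tested. At an unadjusted p under 0.05 33 of the 44 members that passed the filter differed in either direction, and DESeq2 called 14. Without the filter on low counts the total was 7, 1 of them higher. Of the 27 liver members 7 were lower, among them apoa2 at a log2 fold change of -1.15 (SE 0.27, edgeR adjusted p = 0.00524), a call lost without the filter (edgeR adjusted p = 0.133). tfa, at -0.85 (SE 0.37, edgeR adjusted p = 0.0964), and fabp10a, at -0.92 (SE 0.37, edgeR adjusted p = 0.0734), did not pass. Without the 72 hpf sqet33mi59BEt library the total was 8.

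**Figure D3:**
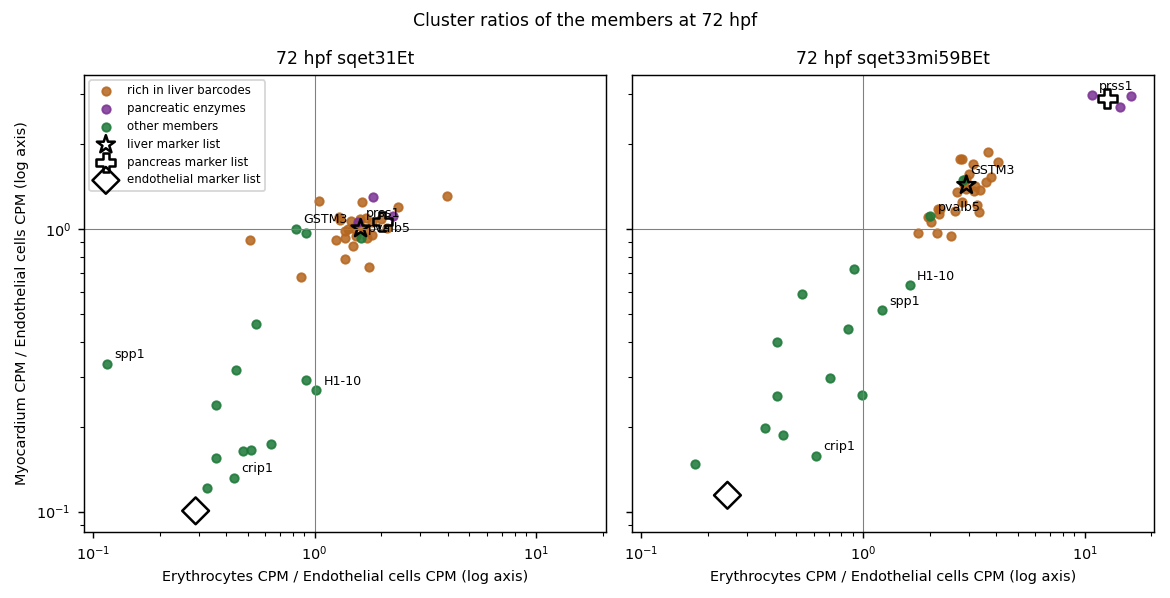
Ratio of Myocardium to Endothelial cells (y axis, log scale) against the ratio of Erythrocytes to Endothelial cells (x axis, log scale) for 45 members in the 2 libraries at 72 hpf. Black outlines give the same ratios for summed marker lists of liver, pancreas and endothelium: brown members lie around the liver star, purple ones around the pancreas cross and green ones spread down towards the endothelial diamond. The liver list of 12 genes holds 7 members and the pancreas list of 10 genes holds 2.

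Another 3 members are digestive enzymes of the exocrine pancreas: prss1 and prss59.2 (trypsins) and CELA1 (an elastase). prss1 had 59.9 and 77.7 CPM in Endothelial cells, 63.4 and 231 CPM in Myocardium and 94.3 and 837 CPM in Erythrocytes at 72 hpf, and stood at 1.27 CPM or below in each of these clusters at 48 hpf. prss59.2 had 43.6 and 60.7 CPM in Endothelial cells and 98.6 and 877 CPM in Erythrocytes at 72 hpf, and was at 0 UMIs in all 3 clusters at 48 hpf. The sqet33mi59BEt library was thus far above the sqet31Et library in red cells, and close to it in endothelium.

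Their ratios lay within the range of the liver members in the 72 hpf sqet31Et library and above it in the 72 hpf sqet33mi59BEt library. Erythrocytes were 1.57 to 2.26 times as high as Endothelial cells in the 72 hpf sqet31Et library and 10.8 to 16.1 times as high in the 72 hpf sqet33mi59BEt library, against 2.02 and 12.7 times for a list of 10 pancreas genes that holds both trypsins. In the test against Erythrocytes, which uses the sums of the rule and describes the chosen genes only, Endothelial cells were lower for all 3. The log2 fold change was -3.05 for prss59.2 (SE 0.42, edgeR adjusted p = 1.79e-06) and -3.31 for CELA1 (SE 0.46, edgeR adjusted p = 1.42e-06). CELA1 did not pass without the 72 hpf sqet33mi59BEt library, and prss59.2 did not pass with DESeq2. In liver-rich barcodes prss1 had 28.8 and 123 CPM. The highest cluster for all 3 was Proliferating cells, where prss1 had 1205 and 3168 CPM at 72 hpf, against 2.53 and 2.08 CPM at 48 hpf. Barcodes with at least 1% of UMIs in the pancreas list numbered 124 and 310 at 72 hpf, of which 31 and 77 were Proliferating cells and 0 and 45 Erythrocytes, against 0 and 1 barcodes at 48 hpf.

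The other 16 members were at 0 to 37.0 CPM in the liver-rich barcodes of either library and included matrix, signalling and structural genes. crip1, a small LIM domain protein, was the most abundant in endothelium, at 1137 and 903 CPM in Endothelial cells at 72 hpf, against 212 and 215 CPM at 48 hpf. In Myocardium crip1 had 150 and 142 CPM at 72 hpf, against 7.60 and 17.2 CPM at 48 hpf, and in Erythrocytes 493 and 556 CPM at 72 hpf, against 25.9 and 126 CPM at 48 hpf. Its highest cluster was AV endocardium, the endocardium of the atrioventricular canal, at 4701 and 4785 CPM at 72 hpf, against 1516 and 1597 CPM at 48 hpf.

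Among the matrix genes COL1A2, COL5A1, POSTN and THBS1, endothelium was highest and heart muscle lowest of the 3 clusters in both libraries at 72 hpf. COL1A2, a chain of fibrillar type I collagen, had 606 and 581 CPM in Endothelial cells, 99.8 and 109 CPM in Myocardium and 313 and 253 CPM in Erythrocytes at 72 hpf. At 48 hpf COL1A2 had 231 and 217 CPM in Endothelial cells, 11.8 and 17.7 CPM in Myocardium and 156 and 107 CPM in Erythrocytes. For COL1A2 that order held in all 4 libraries. COL5A1, a chain of type V collagen, had 418 and 427 CPM in Endothelial cells at 72 hpf, against 227 and 248 CPM at 48 hpf. POSTN, the matrix protein periostin, had 262 and 504 CPM in Endothelial cells at 72 hpf, against 6.41 and 8.20 CPM at 48 hpf. POSTN was thus the lowest of these genes in endothelium at 48 hpf, and its stages lay far apart. THBS1, the matrix glycoprotein thrombospondin, had 382 and 337 CPM in Endothelial cells at 72 hpf, against 104 and 91.6 CPM at 48 hpf.

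Outside the 3 clusters, COL1A2, COL5A1 and POSTN were highest in AV cushion, the cells that form the valves, and THBS1 in Epicardium, the outer layer of the heart, closely followed by AV cushion. POSTN had 934 and 1409 CPM in AV cushion at 72 hpf, against 7.72 and 38.6 CPM at 48 hpf. The 48 hpf values of AV cushion rest on only 54 and 34 cells. COL5A1 had 1799 and 1694 CPM there at 72 hpf, against 926 and 1669 CPM at 48 hpf, so its libraries at the 2 stages nearly met. AV cushion cells were 2.03% and 2.10% of annotated cells at 72 hpf, against 0.758% and 0.505% at 48 hpf, and Epicardium was 2.22% and 3.06% at 72 hpf, against 0.463% and 0.223% at 48 hpf. The clusters in which these genes are highest were thus a larger share of annotated cells at 72 hpf. Barcodes left without a cluster had a median of 1179 and 2762 UMIs at 72 hpf, against 12019.5 and 14604.5 UMIs at 48 hpf. The barcodes left out were thus deeper at 48 hpf, so these shares may not give the make-up of the hearts. The part of these shares in the levels elsewhere was not tested.

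spp1, the secreted matrix protein osteopontin, and anxa5b, an annexin that binds membrane phospholipid, were also highest in AV endocardium. spp1 had 1392 and 1654 CPM there at 72 hpf, against 87.3 and 45.5 CPM at 48 hpf, and in Erythrocytes 8.57 and 114 CPM at 72 hpf, against 0 UMIs at 48 hpf. anxa5b had 671 and 1386 CPM in AV endocardium at 72 hpf, against 514 and 590 CPM at 48 hpf. GSTM3, a glutathione transferase, was highest in Epicardium, at 2057 and 2519 CPM at 72 hpf, against 1676 and 425 CPM in 33 and 15 cells at 48 hpf. In Endothelial cells GSTM3 had 46.7 and 50.4 CPM at 72 hpf, against 2.45 and 1.46 CPM at 48 hpf. pvalb5, a calcium-binding parvalbumin, was highest in Neuronal cells, at 15420 and 4767 CPM at 72 hpf, against 0 UMIs in only 6 and 11 cells at 48 hpf. In Endothelial cells pvalb5 differed by about 10 times between the 72 hpf libraries, at 13.2 and 137 CPM, against 0.117 and 0.244 CPM at 48 hpf. The unnamed ENSDARG00000106873 and si:ch211-178n15.1, for which no role is given here, were highest in Bulbus arteriosus. ENSDARG00000106873 had 940 and 759 CPM there at 72 hpf, against 380 and 261 CPM at 48 hpf, and si:ch211-178n15.1 had 307 and 334 CPM at 72 hpf, against 195 and 115 CPM at 48 hpf.

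**Figure D4:**
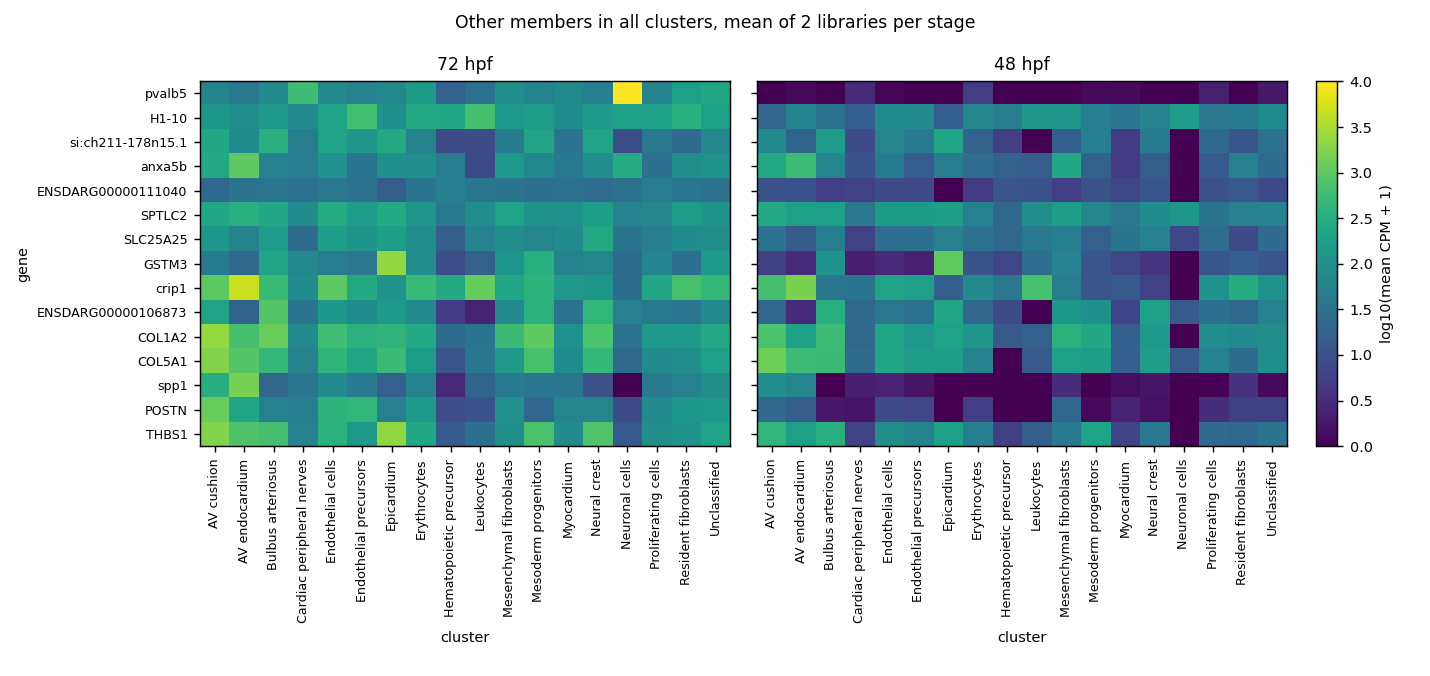
Mean CPM over the 2 libraries of each stage (log10 of mean CPM + 1) for 15 members outside the liver and pancreas groups, in all 18 clusters, with 72 hpf left of 48 hpf. crip1, spp1 and anxa5b peak in AV endocardium, COL1A2, COL5A1 and POSTN in AV cushion, GSTM3 and THBS1 in Epicardium and pvalb5 in Neuronal cells.

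How far the level of these genes in heart muscle followed endothelial RNA was measured with the 6 endothelial markers. Their sum in Myocardium was 0.101 and 0.114 times that in Endothelial cells at 72 hpf, against 0.0286 and 0.0532 times at 48 hpf, so endothelial RNA in the muscle cluster was itself 2 to 4 times higher at the later stage. crip1 had a ratio of 0.132 and 0.158 at 72 hpf, against 0.0358 and 0.0799 at 48 hpf. COL1A2 had 0.165 and 0.188 at 72 hpf, against 0.0509 and 0.0816 at 48 hpf. At 72 hpf, POSTN, crip1, si:ch211-178n15.1, COL1A2, COL5A1, THBS1 and ENSDARG00000106873 were at 1.202 to 2.61 times the ratio of the endothelial markers. The part of endothelial RNA in the change of these genes in Myocardium was not tested beyond these ratios.

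Other members stood further from the endothelial ratio, some of them by little. At 72 hpf GSTM3 was at 9.96 and 13.1 times the ratio of the endothelial markers and pvalb5 at 9.26 and 9.72 times. ENSDARG00000111040 was at 9.61 and 6.33 times, spp1 at 3.32 and 4.52 times and anxa5b at 2.90 and 3.87 times. Relative to the endothelial markers at 72 hpf, SLC25A25, a calcium-sensitive mitochondrial carrier, was at 4.59 and 5.15 times, and SPTLC2, a subunit of the enzyme that starts sphingolipid synthesis, was at 3.14 and 3.49 times. H1-10, a linker histone, was at 2.67 and 5.54 times. At 48 hpf the multiples were higher for SLC25A25, at 28.89 and 32.3, for SPTLC2, at 8.51 and 4.89, and for H1-10, at 14.7 and 8.02.

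SLC25A25 had 98.1 and 73.3 CPM in Myocardium at 72 hpf, against 19.5 and 47.1 CPM at 48 hpf. SPTLC2 had 86.1 and 124 CPM in Myocardium at 72 hpf, against 35.8 and 40.5 CPM at 48 hpf. H1-10 had 66.7 and 106 CPM in Myocardium at 72 hpf, against 31.5 and 41.6 CPM at 48 hpf, and 249 and 167 CPM in Endothelial cells at 72 hpf, against 74.9 and 97.6 CPM at 48 hpf. These 3 genes had counts in muscle at both stages, as had crip1 and COL1A2. The rule itself keeps the stages of every member apart in muscle, and SLC25A25 was nearest to its limit. The unnamed ENSDARG00000111040 was nearly even across clusters: it had 23.5 and 52.1 CPM in Endothelial cells, 22.7 and 37.7 CPM in Myocardium and 21.4 and 47.7 CPM in Erythrocytes at 72 hpf. At 48 hpf it had 8.04 and 7.31 CPM in Endothelial cells and 5.25 and 7.76 CPM in Myocardium. Its highest cluster, Hematopoietic precursor, had 27.5 and 78.8 CPM at 72 hpf, against 5.84 and 14.5 CPM at 48 hpf.

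In Erythrocytes, the endothelial markers stood at 0.291 and 0.245 times their level in Endothelial cells at 72 hpf, against 0.364 and 0.255 times at 48 hpf. crip1 was at 0.434 and 0.616 times at 72 hpf, against 0.122 and 0.587 times at 48 hpf, and COL1A2 at 0.516 and 0.436 times at 72 hpf, against 0.672 and 0.493 times at 48 hpf. In the test against Erythrocytes, which describes the chosen genes only, 7 of the 16 were higher in Endothelial cells. Among them were COL1A2, COL5A1, POSTN, crip1, SPTLC2 and si:ch211-178n15.1. si:ch211-178n15.1 had a log2 fold change of 1.55 (SE 0.30, edgeR adjusted p = 0.00017), COL5A1 of 1.41 (SE 0.24, edgeR adjusted p = 3.71e-05), SPTLC2 of 1.12 (SE 0.23, edgeR adjusted p = 0.000552) and crip1 of 0.91 (SE 0.26, edgeR adjusted p = 0.0103). pvalb5 and GSTM3 were lower in Endothelial cells, and GSTM3, at -1.37 (SE 0.38, edgeR adjusted p = 0.00856), did not pass when library totals replaced TMM scaling. Myocardium was lower than Erythrocytes for 8 of the 16, with crip1 at -1.99 (SE 0.29, edgeR adjusted p = 0.000198), COL1A2 at -2.02 (SE 0.34, edgeR adjusted p = 0.000484) and THBS1 at -1.99 (SE 0.36, edgeR adjusted p = 0.000899).

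Whether the members also differed between stages in cells that the rule did not use was tested with edgeR in 3 further clusters. Their cells come from the same libraries that chose the members, and free RNA of a library reaches all of its clusters, so these clusters are not a fresh sample. In Neural crest, 35 of 46 members were higher at 72 hpf and 0 were lower, against 6.79% of 5509 genes tested that were higher. DESeq2 called 34, and 41 had an unadjusted p under 0.05 in either direction. 42 members passed the filter, with a median log2 fold change of 4.69 beside -0.05 over all genes. For 8 of the 42 both 48 hpf libraries were at 0 UMIs, and with these at their bound (3 counts over the group) the median was 4.37. These 8 passed the filter only through the 72 hpf libraries, so a call for them could only be higher. The calls were not counted without them.

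In Neural crest, apoa2 had 592 and 1148 CPM at 72 hpf, against 4.69 and 5.57 CPM at 48 hpf, a log2 fold change of 7.15 (SE 0.48, edgeR adjusted p = 0.000168). fabp10a had 166 and 227 CPM at 72 hpf, against 0 UMIs at 48 hpf, and was at least 142-fold higher. Both liver genes were at about the level that they had in Endothelial cells. THBS1 had 472 and 1104 CPM at 72 hpf, against 43.4 and 37.6 CPM at 48 hpf, a log2 fold change of 4.10 (SE 0.42, edgeR adjusted p = 0.000885). crip1 had 109 and 151 CPM at 72 hpf, against 5.86 and 4.18 CPM at 48 hpf, a log2 fold change of 4.53 (SE 0.46, edgeR adjusted p = 0.000885). COL1A2 had 749 and 737 CPM at 72 hpf, against 158 and 116 CPM at 48 hpf, a log2 fold change of 2.32 (SE 0.32, edgeR adjusted p = 0.00259). The last level was above that in Endothelial cells, whereas crip1 was far below it. SLC25A25 was highest of all clusters in Neural crest, at 225 and 320 CPM at 72 hpf, against 42.2 and 72.4 CPM at 48 hpf, a log2 fold change of 2.05 (SE 0.38, edgeR adjusted p = 0.00904). Beside these changes, the 6 endothelial markers summed to 299 and 417 CPM in Neural crest at 72 hpf, against 68.0 and 141 CPM at 48 hpf, and 3 of the 5 tested were higher.

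apoc1 went its own way in Neural crest. It had 29.9 and 32.4 CPM at 72 hpf, against 125 and 0.697 CPM at 48 hpf, with a log2 fold change of -1.01 (SE 1.21, edgeR adjusted p = 0.653). The 48 hpf sqet31Et library alone was high in this cluster, and without it the log2 fold change was 4.98. Without the 48 hpf sqet33mi59BEt library it was -2.07. In Mesenchymal fibroblasts both 48 hpf libraries held apoc1, at 148 and 166 CPM, against 158 and 550 CPM at 72 hpf. fabp10a had 7.59 and 0 CPM there at 48 hpf. The source of apoc1 at 48 hpf was not tested.

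In Bulbus arteriosus, the outflow chamber of the fish heart, 32 of 46 members were higher at 72 hpf and 0 were lower, against 4.68% of 5430 genes tested that were higher. DESeq2 called 31, and 39 had an unadjusted p under 0.05 in either direction. The median over the 44 that passed the filter was 4.39, or 3.82 with 10 members at 0 UMIs at 48 hpf set to their bound, against 0.01 over all genes. For these 10, too, a call could only be higher, and the calls were not counted without them. apoa1b had 299 and 309 CPM at 72 hpf, against 8.34 and 6.64 CPM at 48 hpf, a log2 fold change of 5.22 (SE 0.48, edgeR adjusted p = 4.59e-06). crip1 had 456 and 572 CPM at 72 hpf, against 25.0 and 46.5 CPM at 48 hpf, a log2 fold change of 3.75 (SE 0.43, edgeR adjusted p = 3.36e-05). prss1 had 42.9 and 67.1 CPM at 72 hpf, against 0 UMIs at 48 hpf, and was at least 17.3-fold higher. Liver, pancreas and other members were all among the 32, and prss1, prss59.2 and CELA1 each had 0 UMIs there at 48 hpf.

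Members that did not pass in Bulbus arteriosus were mostly from the last group. COL1A2 had 1469 and 1023 CPM at 72 hpf, against 576 and 538 CPM at 48 hpf (edgeR adjusted p = 0.0907), and passed when library totals replaced TMM scaling (edgeR adjusted p = 0.026). THBS1 had 499 and 813 CPM at 72 hpf, against 470 and 170 CPM at 48 hpf (edgeR adjusted p = 0.201). The liver enzyme BHMT had 244 and 180 CPM at 72 hpf, against 242 and 166 CPM at 48 hpf, a log2 fold change of 0.01 (SE 0.37, edgeR adjusted p = 0.992). BHMT was thus already present at 48 hpf in this cluster, while Endothelial cells held 17.4 and 3.90 CPM at that stage. At 48 hpf it also had 83.2 and 59.9 CPM in Neural crest and 474 and 168 CPM in Mesenchymal fibroblasts. In Bulbus arteriosus at 48 hpf tfa had 25.0 and 6.64 CPM and fabp10a 0 and 4.42 CPM. BHMT is thus not particular to liver-rich barcodes, and its source in these clusters was not tested.

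In Mesenchymal fibroblasts, 18 of 46 members were higher at 72 hpf and 0 were lower, against 2.09% of 7512 genes tested that were higher. DESeq2 called 23, and 38 had an unadjusted p under 0.05 in either direction. For 2 members both 48 hpf libraries were at 0 UMIs, so a call for them could only be higher. This cluster held 11 and 25 of the 16 and 43 liver-rich barcodes at 72 hpf, and the rest had no cluster. tfa had 4098 and 6612 CPM in it at 72 hpf, against 329 and 50.6 CPM at 48 hpf, a log2 fold change of 4.84 (SE 0.82, edgeR adjusted p = 0.0263). This call was lost without either 72 hpf library, at an edgeR adjusted p of 0.0568 without sqet31Et and 0.135 without sqet33mi59BEt. Once the 185 and 211 cells with at least 1% of UMIs in the hepatocyte markers at 72 hpf, and 5 and 0 cells at 48 hpf, were left out, tfa had 304 and 522 CPM at 72 hpf, against 37.4 and 50.6 CPM at 48 hpf. The filter counts tfa itself, so it sets this level in part. In that fit edgeR called 0 of 6772 genes at an adjusted p under 0.05, with 34 of 46 members and 740 of all genes at an unadjusted p under 0.05, and the median log2 fold change of the members was 2.30, against -0.03 over all genes. With the liver-rich cells kept, 0 members were called without the 72 hpf sqet33mi59BEt library, 35 without the 48 hpf sqet31Et library and 29 without the 48 hpf sqet33mi59BEt library.

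**Figure D5:**
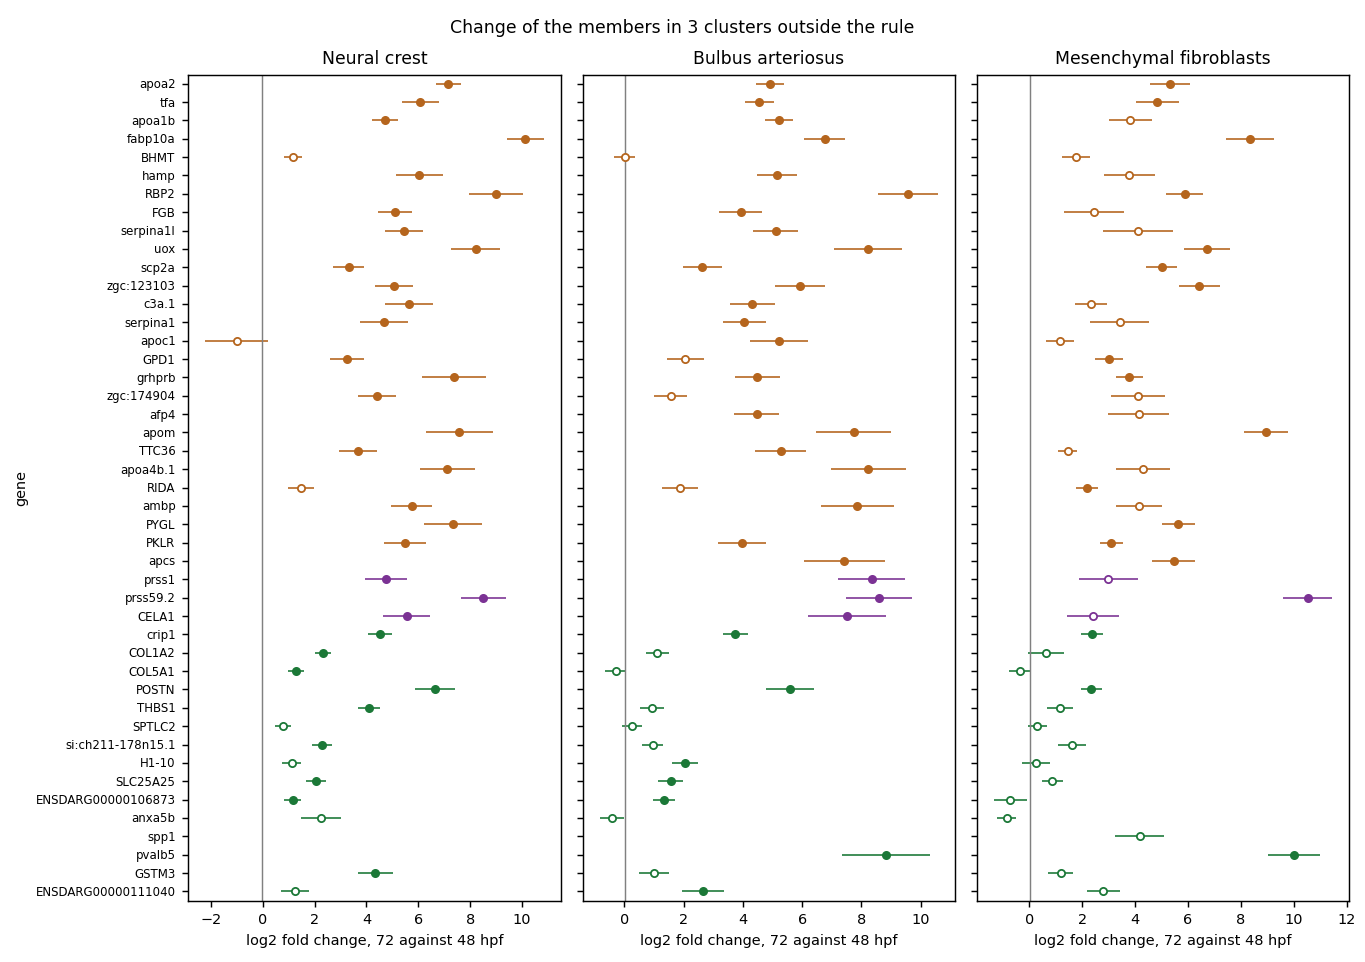
Log2 fold change of 72 against 48 hpf (points, with bars of 1 SE) for the named members that passed the filter in Neural crest, Bulbus arteriosus and Mesenchymal fibroblasts. Filled points passed an edgeR adjusted p of 0.05, the grey line is the median of all genes, and the members lie to its right except for a few such as apoc1 in Neural crest and BHMT in Bulbus arteriosus.

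Of a list of liver genes drawn up from textbook markers, 44 were matched and 13 of them are members. In Neural crest 17 of the 19 tested were higher at 72 hpf and 0 lower, in Bulbus arteriosus 19 of 21 and 0, and in Mesenchymal fibroblasts 22 of 39 and 0. Over all genes tested, 6.79%, 4.68% and 2.09% were higher in these clusters. The genes tested include members, which were chosen for such a rise and are already counted above. The list genes that are not members were not counted apart. The pancreas list has 10 matched genes, of which 2, prss1 and prss59.2, are members. Those 2 were the only ones tested in Neural crest and in Bulbus arteriosus. They were higher in both clusters, which repeats the member counts above. In Mesenchymal fibroblasts 3 of 5 tested were higher, and 0 were lower in any of the 3 clusters. Of 14 clusters outside the rule with at least 10 cells in every library, the liver members met the same level and fold in a median of 10 and in 7 to 14, the pancreatic members in 8 to 14, and the other 16 in a median of 8 and in 1 to 12. The median was 0 over the 2224 genes that reached the level in the 3 clusters. SPTLC2 met it in 1 cluster and anxa5b in 4, the narrowest of the members, and tfa, fabp10a and prss1 met it in all 14.

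The difference between the changes in endothelium or muscle and in red cells was also fitted. It draws on the stage values in the 3 clusters that the rule used, and a rise in each of them limits how far the changes can differ, so nothing about the members is read from it. For Endothelial cells minus Erythrocytes edgeR called 0 of 46 members, with 0.145% of 11736 genes higher and 0.128% lower. DESeq2 also called 0, and 7 members had an unadjusted p under 0.05. For Myocardium minus Erythrocytes edgeR and DESeq2 called 0 of 46, with 6 members at an unadjusted p under 0.05, 0.375% of genes higher and 0.239% lower. The median SE of the members was 1.03 and 1.08 on the log2 scale, and 23 members had fewer than 3 UMIs in the 48 hpf Erythrocytes of both libraries together, 8 of them none.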

How the data were processed

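The members, groups and gene lists were chosen with earlier results of these data known. The authors aligned reads to GRCz11 with Cell Ranger and clustered cells in Seurat, after removing doublets and barcodes outside limits on genes, mitochondrial and hemoglobin share. The authors deposited unnormalized UMI counts by barcode, and a count total for each barcode. The other deposited columns hold barcodes, gene identifiers, library names and the cluster names used here, which are no measurement. Symbols matched 23608 of 25434 identifiers. The lines came from separate crosses, so p-values of tests between stages measure the spread between 1 pool of hearts of each line. In the fits with the library as a block, they measure the spread left between clusters within libraries. UMIs were summed per cluster and library, then tested with edgeR 4.0.16 (TMM, filterByExpr, quasi-likelihood, Benjamini-Hochberg), with DESeq2 1.42.0 as an alternative, and tested on simulated data. The rule for named genes took members on tissue or functional lists, the 15 others of highest CPM and the 5 genes on each side of the fold nearest to it. 1 member is counted but not reported here, all others are named, and genes printed with an adjusted p were picked after their values were seen. Intervals and floors cover counting error only. Deviations of libraries of 1 line correlated at 0.113, 0.0266 and 0.0367 in Neural crest, Mesenchymal fibroblasts and Bulbus arteriosus, 1 pair each. Line was not a block in the main fits between stages, and 1 pair each cannot settle whether it is a pairing. The 3 member groups rest on liver-rich barcodes and on enzyme names.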

Additional observations from a re-analysis of the deposited data

How the results depend on the processing

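The rule gave 46 genes. A minimum of 10 CPM gave 101, and leaving out each library gave 47 to 159, of which 28 to 46 were members. Other settings gave 32 to 56. Without cells of at least 1% hepatocyte marker UMIs, 43 of the 46 remained. At 5% in place of 10% for liver-rich barcodes, 27 members were highest there in place of 26, and 20% left 1 and 0 barcodes, so no value. Of the 26 members with an estimate at 10%, those at least 10 times the liver estimate at 5% numbered 0 in place of 9. Those at most 2 times it numbered 11 in place of 10. tfa, with an estimate at 5% only, was at 0.324 to 0.609 times it, from 10 and 44 barcodes. Leaving out each library gave 26 to 39 members called in Neural crest, 28 to 31 in Bulbus arteriosus, 0 to 35 in Mesenchymal fibroblasts, 13 to 37 for Endothelial cells and 8 to 19 for Myocardium against Erythrocytes, and 0 for both differences of change. Mesenchymal fibroblasts had 35 with no filter and 0 without barcodes rich in liver genes, an alternative chosen after seeing the data. Myocardium against Erythrocytes had 7 with no filter. With line as a replicate block, 35, 17 and 35 members were called in Neural crest, Mesenchymal fibroblasts and Bulbus arteriosus. With no replicate block, 0 were called for Endothelial cells and 0 for Myocardium against Erythrocytes, where the library is the block by construction. With library totals, 1 member was called for the difference of change in Myocardium. apoc1 in Neural crest reversed to a log2 fold change of 4.98 without 48 hpf replicate 1, and was -2.07 without 48 hpf replicate 2. Among single genes, 319 values kept their call and direction, 41 lost the call, 4 gained it and 1 reversed. Against library totals, TMM moved the median of all genes by -0.20 for Endothelial cells and 0.14 for Myocardium against Erythrocytes, by -0.14 in Neural crest and by -0.36 and -0.35 for the differences of change; higher and lower calls were then 1222 and 657 in place of 838 and 911 for Endothelial cells against Erythrocytes, 24 and 5 in place of 17 and 15 for their difference of change, and 167 and 14 in place of 44 and 28 for that of Myocardium. Among the 3 clusters of the rule, depth limits Erythrocytes most, with 115792 UMIs in the shallowest sum, and some sums of rarer clusters were shallower, down to 9013 UMIs in Neuronal cells at 48 hpf.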
